A study of Homo sapiens with 9 samples.

Results

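Interferon response genes are the genes that cells switch on after they sense a virus or receive interferon, and 40 of them were followed here to see whether a lentiviral hairpin had set off such a response. The members were a fixed list of symbols, and a probe set of the array was used where the platform annotation gave it exactly 1 of these symbols. That held for 804 probe sets of 39 members, out of 354600 probe sets with 1 gene symbol among 1384231 in all. PSMB8-AS1, an antisense RNA of the immunoproteasome locus, had no such probe set, so its level is not analysed here. DDX58 carries the current symbol RIGI. After a filter on low signal, described with the first counts, 34 members were measured among 16748 genes.

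The cells were Flip-In-293, made from HEK293 (human embryonic kidney cells) by adding a site for targeted integration. They were infected with a lentivirus and cultured for 10 days before total RNA was taken. The virus carried a short hairpin RNA against CPSF3, the endonuclease that cuts pre-mRNA ahead of polyadenylation, or against RBFOX2, a splicing regulator, or a non-silencing hairpin as control, with 3 arrays in each of these 3 groups. All 9 arrays thus come from infected cells. There was no uninfected group, so a response that all the hairpins share cannot be seen in these comparisons. The parent line also carries adenoviral DNA whose E1A protein is known to restrain transcription of interferon-stimulated genes, and this holds for all the groups alike. The labels do not say how many hairpin sequences or clones were used for a target. Titles give the replicates as biological but the design text as technical, and the tests therefore speak only of how far these arrays scatter, a scatter that may come from the assay.

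In the textbook pathway, double-stranded RNA in the cytosol is bound by sensors such as RIG-I (DDX58) and MDA5 (IFIH1), which signal through an adaptor on mitochondria to kinases that activate IRF transcription factors. The type I interferons made in response bind the receptor IFNAR1/IFNAR2, and transcription factors that include STAT2 and IRF9 then bind an element in the promoters of the target genes. The products degrade RNA, block translation, trap virions at membranes or tag proteins with ISG15. Short hairpin RNAs and viral RNA are both known as possible triggers, which is why genes such as IFIT1, ISG15, MX1 and OAS1 are commonly used to look for an unintended response in knockdown experiments.

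This element, the interferon-stimulated response element, was searched as GAAANNGAAA on both strands in RefSeq promoter windows of GRCh38.p14, from 250 bases before to 50 bases after each gene's start (300 bases). Windows were at hand for 33 members, PSMB8-AS1 among them, and 24 of these genes (72.7%) held a match, against 1195 of 27305 genes with a window (4.38%). The gamma-activated site, searched as TTCNNNGAA, was matched in 11 of the 33 (33.3%), against 9.38% of all genes with a window. A match says that these letters are present and does not show that a factor bound there. OAS2, OASL, IRF7, IFIT2, MX2, IFITM2 and USP18 had no window. The sequences below belong to the 5 members that differed from control on the CPSF3 hairpin arrays (DTX3L, EIF2AK2, IFIT5, BST2 and IFI6) and to IFIT1 and ISG15, genes much used to read an antiviral response. Among these printed members, those that were higher, those that were lower and those that did not pass the test all hold the element. Other members that did not pass the test, such as DDX58, ADAR, STAT2 and IRF1, had no match in their windows. Each sequence runs on the gene's own strand from 160 bases before to 20 bases after the start. Capitals mark every match of the response element, also where the element reads on the other strand.
DTX3L: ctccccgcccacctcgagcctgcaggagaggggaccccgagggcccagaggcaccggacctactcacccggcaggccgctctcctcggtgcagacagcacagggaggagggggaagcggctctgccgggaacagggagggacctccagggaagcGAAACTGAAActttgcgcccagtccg
EIF2AK2: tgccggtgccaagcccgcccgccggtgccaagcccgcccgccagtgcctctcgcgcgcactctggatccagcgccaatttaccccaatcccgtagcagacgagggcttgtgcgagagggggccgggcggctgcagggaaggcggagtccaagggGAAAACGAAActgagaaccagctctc
IFIT5: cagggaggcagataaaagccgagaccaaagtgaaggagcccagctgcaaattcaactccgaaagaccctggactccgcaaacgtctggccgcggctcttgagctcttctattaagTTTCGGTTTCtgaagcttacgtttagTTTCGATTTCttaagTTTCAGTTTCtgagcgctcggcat
BST2: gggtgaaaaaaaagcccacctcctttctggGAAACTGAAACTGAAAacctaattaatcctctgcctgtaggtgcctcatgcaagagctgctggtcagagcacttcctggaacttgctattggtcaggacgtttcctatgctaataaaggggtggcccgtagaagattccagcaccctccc
IFI6: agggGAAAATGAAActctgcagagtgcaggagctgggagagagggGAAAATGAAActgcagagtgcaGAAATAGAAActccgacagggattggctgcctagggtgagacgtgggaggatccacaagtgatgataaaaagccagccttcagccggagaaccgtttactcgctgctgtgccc
IFIT1: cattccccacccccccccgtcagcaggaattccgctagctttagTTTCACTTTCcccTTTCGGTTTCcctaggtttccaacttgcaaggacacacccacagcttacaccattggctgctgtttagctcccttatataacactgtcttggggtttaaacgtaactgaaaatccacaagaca
ISG15: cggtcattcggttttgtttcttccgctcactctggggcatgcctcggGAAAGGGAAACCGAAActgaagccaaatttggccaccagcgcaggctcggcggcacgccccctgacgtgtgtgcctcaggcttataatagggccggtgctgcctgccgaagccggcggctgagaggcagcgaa

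The windows lie at chr3:122564178-122564357 on the plus strand (DTX3L), chr2:37156961-37157140 on the minus strand (EIF2AK2), chr10:89414408-89414587 on the plus strand (IFIT5), chr19:17405611-17405790 on the minus strand (BST2), chr1:27672173-27672352 on the minus strand (IFI6), chr10:89392463-89392642 on the plus strand (IFIT1) and chr1:1013337-1013516 on the plus strand (ISG15). In DTX3L and EIF2AK2 the match began 6 bases before the start, and in IFIT5 the matches began 45, 19 and 4 bases before it. In BST2 and ISG15 the runs in capitals are 2 matches that overlap. The full window of DTX3L shares 137 bases with that of PARP9 on the opposite strand, and the match of DTX3L is the same stretch of DNA as that of PARP9, 41 bases before the start of that gene.

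Before the members, the targeted genes were checked. On the arrays labelled CPSF3 knockdown, CPSF3 stood at 9.60, 9.27 and 9.27 (log2 signal), against 9.33, 9.29 and 9.80 on control arrays. The groups overlapped, with a difference of -0.09 ± 0.16 (SE, 3 arrays against 3; limma, adjusted p = 0.752), so the label is not borne out by the transcript, and every direction given below for the CPSF3 hairpin arrays rests on that label. RBFOX2 stood at 8.95, 8.82 and 9.05 on RBFOX2 hairpin arrays, against 9.66, 9.54 and 9.38 on control arrays. All the RBFOX2 hairpin arrays were lower, by -0.58 ± 0.12 (66.7% of control; adjusted p = 0.0617). Median signal differed by 0.033 between arrays at most, and control replicate 3 lay nearest to the other groups, with a mean distance of 35.2 over all genes, against 46.8 and 52.2 for control replicates 1 and 2. Of the markers of the labelled cell type, all 6 were measured. By adjusted p, 4 of them (ENO2, VIM, NEFL and KRT8) were lower on the CPSF3 hairpin arrays, and ENO2 also on the RBFOX2 hairpin arrays. Over all genes, 4.38% passed as lower on the former and 0.173% passed in either direction on the latter. All 6 differences were below 0 in both comparisons, and 5 and 4 had an unadjusted p under 0.05, against 28.2% and 13.6% of all genes. The part of these markers in the results was not tested. Of the blood, fibroblast and endothelial markers, 5 of 7, 6 of 6 and 5 of 5 were measured, and 0 differed from control in either comparison by limma (0, 2 and 2 results with an unadjusted p under 0.05).

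The values are log2 probe set signals made by RMA. A probe set was kept where its mean over the 9 arrays reached 6.97, the median of such means over the whole array, and the level of a gene is the median over its kept probe sets, at least 3. On this scale a difference of 1 is a 2-fold change. A gene is called higher or lower where limma gave an adjusted p under 0.05, adjusted by Benjamini and Hochberg over all 16748 genes. In these bulk samples, fewer responding cells and less RNA per cell cannot be told apart.

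On the CPSF3 hairpin arrays, 5 of the 34 measured members differed from control, 3 higher (DTX3L, IFIT5 and EIF2AK2) and 2 lower (BST2 and IFI6). This is 14.7% of the members, and 14.4% of all genes differed in the same comparison, so the share of members lies at that of the array as a whole. By direction, 10% of all genes were called higher and 4.38% lower. Among the members 17 differences were above 0 and 17 below, and their median was -0.01, against 0.01 for all genes tested. Arrays of the groups did not overlap for 3 higher and 7 lower members (29.4%), against 31.1% of all genes, 17.9% higher and 13.2% lower. Of the 458 kept probe sets of the members, 5 were called higher and 6 lower (2.40%), against 2.76% of all kept probe sets with 1 gene. The count of 5 members became 1 without CPSF3 replicate 1 (2.94%, against 5.76% of all genes), 3 without CPSF3 replicate 3 (8.82%, against 9.94%), 2 without control replicate 1 (5.88%, against 6.46%) and 3 without control replicate 2 (8.82%, against 7.19%). Without control replicate 3 it was 7 (20.6% of members, against 20.5% of all genes).

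On the RBFOX2 hairpin arrays 0 of 34 members differed from control by limma, while 6 (17.6%) had an unadjusted p under 0.05. Of all genes, 0.173% were called and 13.6% had an unadjusted p under 0.05. The median difference of the members was 0.04, against 0.03 for all genes, and 21 of the 34 differences were above 0. Arrays did not overlap for 3 higher members (DTX3L, PARP9 and IFI35) and 2 lower ones (BST2 and RSAD2), or 14.7%, against 14.1% of all genes. The count of 0 was 4 of 34 with array weights and 3 of 34 without control replicate 3. With array weights the count over all genes rose too, from 29 to the number given with the settings at the end. Without control replicate 3, DTX3L (0.74, adjusted p = 0.011), IFIT5 (1.03, adjusted p = 0.000599) and IFIT1 (0.52, adjusted p = 0.0224) passed the test in limma. They are 8.82% of the members, and 9.23% of all genes passed in that setting. Both comparisons use the same control arrays.

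Set directly against each other, the CPSF3 and RBFOX2 hairpin arrays had 0 called members by limma (4 with an unadjusted p under 0.05), and 0.4% of all genes were called. The median difference was -0.03, against 0.00025 for all genes. Arrays did not overlap for 5 members, all lower on the CPSF3 hairpin arrays (IFIT1, IFI35, IFI6, IFITM2 and USP18), or 14.7%, against 20.4% of all genes. The smallest p values were those of IFI6 (-0.47 ± 0.13, adjusted p = 0.16), EIF2AK2 (0.45 ± 0.16, adjusted p = 0.253) and IFI35 (-0.31 ± 0.13, adjusted p = 0.305).

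**Figure D1:**
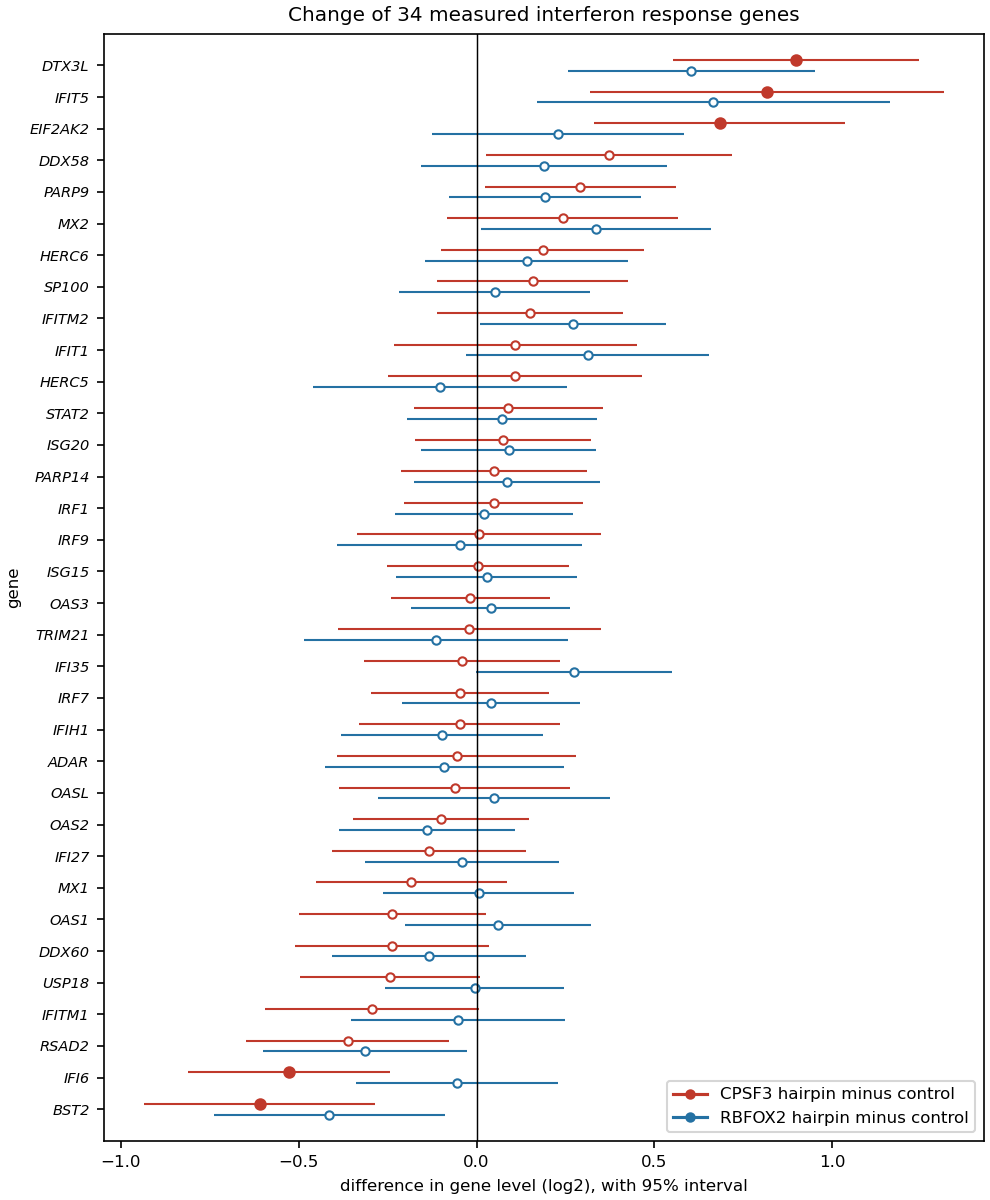
Difference in gene level (log2) of the 34 measured interferon response genes, for CPSF3 hairpin arrays minus control arrays (red) and RBFOX2 hairpin arrays minus control arrays (blue); lines are 95% intervals of the limma fit, and filled points have an adjusted p under 0.05. DTX3L, IFIT5, EIF2AK2, IFI6 and BST2 have filled points for the CPSF3 hairpin, no gene has one for the RBFOX2 hairpin, and most intervals hold 0.

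The sensors and enzymes that meet double-stranded RNA had 9 members, all measured, of which EIF2AK2 alone was called on the CPSF3 hairpin arrays; on the RBFOX2 hairpin arrays 0 were called by limma, and 0 had an unadjusted p under 0.05. EIF2AK2 encodes PKR, a kinase that stops translation when bound to double-stranded RNA. It stood at 9.81, 9.47 and 9.57 on CPSF3 hairpin arrays and at 9.01, 9.00 and 9.48 on RBFOX2 hairpin arrays, against 9.14, 8.62 and 9.03 on control arrays. All CPSF3 hairpin arrays lay above all control arrays, whereas the RBFOX2 hairpin arrays overlapped with control. The rise was 0.68 ± 0.16 (1.61-fold, 95% interval 1.26 to 2.05; limma, adjusted p = 0.0151), and 25 of 26 kept probe sets had a higher mean. For the RBFOX2 hairpin the difference was 0.23 ± 0.16 (adjusted p = 0.597). The call of EIF2AK2 was lost without CPSF3 replicate 1 (0.59, adjusted p = 0.0762) and without control replicate 2 (0.53, adjusted p = 0.0645), and with the filter at the upper quartile of probe set means the difference was 0.40 (adjusted p = 0.117).

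DDX58 and IFIH1 are the sensors that start the response. DDX58 stood at 8.31, 8.05 and 7.85 on CPSF3 hairpin arrays and at 7.83, 7.82 and 8.01 on RBFOX2 hairpin arrays, against 7.70, 7.37 and 8.02 on control arrays. The groups overlapped through control replicate 3. The differences were 0.37 ± 0.16 (adjusted p = 0.145) and 0.19 ± 0.16 (adjusted p = 0.67) by limma, and without control replicate 3 the first became 0.53 and passed the test (adjusted p = 0.0214). It also passed in limma with the mean over kept probe sets (0.33, adjusted p = 0.0362) and with array weights (0.34, adjusted p = 0.0361). IFIH1 stood at 8.47, 8.28 and 8.11 on CPSF3 hairpin arrays and at 8.19, 8.28 and 8.24 on RBFOX2 hairpin arrays, against 8.55, 8.12 and 8.33 on control arrays. All the groups overlapped, and the differences were -0.05 ± 0.13 and -0.10 ± 0.13.

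The oligoadenylate synthetases make the messenger that activates RNase L. OAS1 stood at 8.16, 8.33 and 8.54 on CPSF3 hairpin arrays and at 8.75, 8.66 and 8.52 on RBFOX2 hairpin arrays, against 8.55, 8.54 and 8.65 on control arrays. The CPSF3 hairpin arrays were all just below the control arrays, by -0.24 ± 0.12 (adjusted p = 0.227), and the RBFOX2 hairpin arrays overlapped with control (0.06 ± 0.12, adjusted p = 0.897; limma). The 95% interval of the first difference ended at 1.02-fold and that of the second at 1.25-fold of control. With all 19 probe sets of OAS1, the first difference was 0.04. OAS2, OAS3 and the catalytically inactive OASL differed by -0.10, -0.02 and -0.06 on CPSF3 hairpin arrays and by -0.14, 0.04 and 0.05 on RBFOX2 hairpin arrays. ADAR, which edits adenosines in double-stranded RNA, differed by -0.06 and -0.09, and the helicase DDX60 by -0.24 and -0.13. None of these passed the test.

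**Figure D2:**
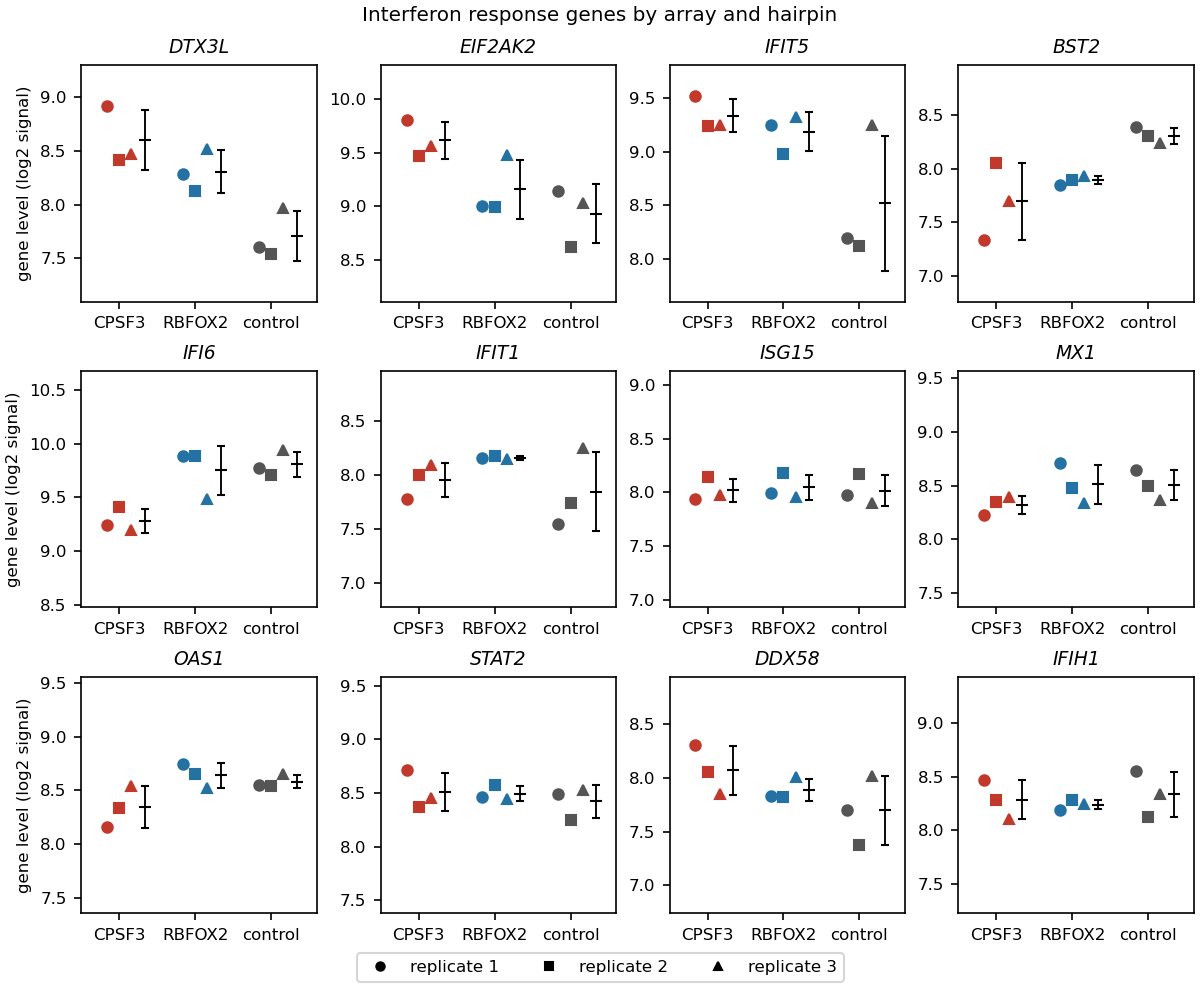
Gene level (log2 signal) on every array for 12 interferon response genes in the CPSF3 hairpin (red), RBFOX2 hairpin (blue) and control (grey) groups; symbols mark the replicate, bars the mean ± SD (n = 3), and every panel spans 2.2 log2 units. DTX3L and EIF2AK2 lie above control on all 3 CPSF3 hairpin arrays, BST2 and IFI6 below it, and control replicate 3 lies with the CPSF3 hairpin arrays for IFIT5.

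The transcription factors of the response had 4 members, all measured, with 0 called in either comparison with control by limma and 0 with an unadjusted p under 0.05. STAT2, a transcription factor activated by the type I interferon receptor, stood at 8.71, 8.37 and 8.45 on CPSF3 hairpin arrays and at 8.47, 8.57 and 8.44 on RBFOX2 hairpin arrays, against 8.49, 8.25 and 8.53 on control arrays. These values overlapped throughout (0.09 ± 0.12 and 0.07 ± 0.12). IRF1, IRF7 and IRF9, which bind the promoters of interferon and of its target genes, differed by 0.05, -0.05 and 0.01 on CPSF3 hairpin arrays and by 0.02, 0.04 and -0.05 on RBFOX2 hairpin arrays.

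Of the 14 cytosolic effectors 10 were measured, and on CPSF3 hairpin arrays IFIT5 was called higher and IFI6 lower. IFIT5 belongs to the IFIT family of RNA-binding proteins. It stood at 9.52, 9.24 and 9.25 on CPSF3 hairpin arrays and at 9.25, 8.98 and 9.33 on RBFOX2 hairpin arrays, against 8.20, 8.12 and 9.25 on control arrays. Control replicates 1 and 2 lay below every other array, and control replicate 3 lay among the arrays of the targeting hairpins, so the groups overlapped. The differences were 0.82 ± 0.23 (1.76-fold, adjusted p = 0.0314) and 0.67 ± 0.23 (adjusted p = 0.224; limma). Only 4 of 7 probe sets of IFIT5 were kept, and with all 7 the first difference was 0.26 (adjusted p = 0.43). The call was lost without CPSF3 replicate 1, 2 or 3 (adjusted p = 0.127, 0.0644 and 0.0622) and without control replicate 1 or 2 (adjusted p = 0.13 and 0.125). It was lost as well in the fit of the compared groups alone (adjusted p = 0.0573). Of the 18 other settings, the call of IFIT5 held in 11 and was lost in 7. Without control replicate 3 the first difference was 1.18 (limma adjusted p = 8.42e-05), and with array weights 0.96 (limma adjusted p = 0.000331).

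IFI6 encodes a small hydrophobic protein induced by interferon. It stood at 9.24, 9.41 and 9.19 on CPSF3 hairpin arrays and at 9.89, 9.88 and 9.49 on RBFOX2 hairpin arrays, against 9.77, 9.71 and 9.94 on control arrays. The CPSF3 hairpin arrays were below all the others. The difference from control was -0.53 ± 0.13 (adjusted p = 0.018; limma), with 7 of 8 probe sets lower, while that of the RBFOX2 hairpin was -0.05 ± 0.13 (adjusted p = 0.913). The call was lost without CPSF3 replicate 1 (-0.51, adjusted p = 0.0672), CPSF3 replicate 3 (-0.48, adjusted p = 0.0639) and control replicate 1 (-0.55, adjusted p = 0.0525).

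IFIT1, which binds viral RNA that lacks the cap methylation of the host, is among the most strongly induced genes of the pathway. It stood at 7.78, 8.0 and 8.09 on CPSF3 hairpin arrays and at 8.16, 8.18 and 8.15 on RBFOX2 hairpin arrays, against 7.54, 7.74 and 8.26 on control arrays. Control replicate 3 was the highest of all arrays and control replicate 1 the lowest. The differences were 0.11 ± 0.16 (adjusted p = 0.72) and 0.31 ± 0.16 (adjusted p = 0.418) by limma, and their 95% intervals ended at 1.37-fold and 1.57-fold of control. Only 3 of the 11 probe sets of IFIT1 were kept, so these levels rest on its brightest probe sets. The second difference passed the test without control replicate 3, as given above, and with array weights both differences passed it (0.33, adjusted p = 0.0454, and 0.50, adjusted p = 0.0286).

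MX1, a GTPase that blocks influenza and other viruses, stood at 8.22, 8.34 and 8.39 on CPSF3 hairpin arrays and at 8.71, 8.48 and 8.34 on RBFOX2 hairpin arrays, against 8.65, 8.50 and 8.37 on control arrays. The groups overlapped, with differences of -0.18 ± 0.12 and 0.0068 ± 0.12, and the intervals ended at 1.06-fold and 1.21-fold of control. IFI35 stood at 8.22, 7.93 and 8.17 on CPSF3 hairpin arrays and at 8.58, 8.41 and 8.27 on RBFOX2 hairpin arrays, against 8.24, 7.99 and 8.21 on control arrays. The RBFOX2 hairpin arrays were above all the others, by 0.27 ± 0.13 over control, which did not pass the test (adjusted p = 0.368; limma). RSAD2, which makes a chain-terminating nucleotide, differed by -0.36 and -0.31, with both hairpin groups below all control arrays (adjusted p = 0.0861 and 0.311). The first difference of RSAD2 passed the test with the mean over probe sets (adjusted p = 0.0355), with array weights (-0.54, adjusted p = 0.00181) and without control replicate 3 (-0.45, adjusted p = 0.0317), and the second with array weights (-0.46, adjusted p = 0.0306; limma). MX2, the exonuclease ISG20, the mitochondrial protein gene IFI27 and TRIM21, a cytosolic antibody receptor, differed by 0.24, 0.07, -0.13 and -0.02 on CPSF3 hairpin arrays and by 0.34, 0.09, -0.04 and -0.11 on RBFOX2 hairpin arrays. With array weights the first difference of MX2 passed the test (0.33, limma adjusted p = 0.0488). With all 22 probe sets MX2 differed by 0.10 and 0.04. Of its 9 kept probe sets, 2 were higher and 7 lower on CPSF3 hairpin arrays.

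Some of the usual sentinels gave too little signal to be measured by the rule. IFIT2 kept 0 of 10 probe sets, IFIT3 kept 1 of 6, IFI44 1 of 18, IFI44L 2 of 21 and the membrane protein gene IFITM3 1 of 5. Over all their probe sets, without the filter, they differed from control by 0.40, -0.02, -0.05, -0.37 and -0.04 on CPSF3 hairpin arrays and by 0.025, 0.15, 0.19, -0.24 and -0.19 on RBFOX2 hairpin arrays, and none passed the test there. For 13 of the 39 members with probe sets, the median over all their probe sets was under the filter value. Besides the members just named, these were DDX58, IFIH1, OAS2, DDX60, IFIT1, MX2, RSAD2 and SP100, whose levels in this report rest on their brighter probe sets. DDX58 kept 8 of 26, DDX60 9 of 49, RSAD2 4 of 12 and SP100 13 of 52. With all probe sets, SP100 differed by -0.19 and DDX60 by -0.04 on CPSF3 hairpin arrays, against 0.16 and -0.24 with the kept ones. DDX58 (0.37) and RSAD2 (-0.44) kept their direction. On RBFOX2 hairpin arrays IFIH1, DDX60 and SP100 changed sign. They differed by 0.11, 0.04 and -0.07 with all probe sets, against -0.10, -0.13 and 0.05 with the kept ones. DDX58 (0.18), OAS2 (-0.10), IFIT1 (0.21), MX2 (0.04) and RSAD2 (-0.45) kept their direction there. Small changes of such dim genes may be missed by this rule.

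The membrane restriction factors had 4 members, of which 3 were measured. BST2 encodes tetherin, which holds budding virions, lentiviral ones included, at the cell surface. It stood at 7.34, 8.06 and 7.70 on CPSF3 hairpin arrays and at 7.85, 7.89 and 7.93 on RBFOX2 hairpin arrays, against 8.38, 8.30 and 8.24 on control arrays. Every array of both targeting hairpins was below every control array. The difference was -0.61 ± 0.15 (adjusted p = 0.0173) for the CPSF3 hairpin and -0.41 ± 0.15 (adjusted p = 0.245) for the RBFOX2 hairpin (limma). Of 7 kept probe sets 6 were lower on CPSF3 hairpin arrays, ranging from -1.26 to 0.14, and 3 were called. The call was lost without CPSF3 replicate 1 (-0.43, adjusted p = 0.0736) and control replicate 1 (-0.57, adjusted p = 0.068), and the filter at the upper quartile gave -0.21 (adjusted p = 0.277).

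IFITM1 and IFITM2 block the fusion of virions with cell membranes. IFITM1 averaged 9.72 ± 0.20 on CPSF3 hairpin arrays and 9.96 ± 0.22 on RBFOX2 hairpin arrays, against 10.01 ± 0.12 on control arrays (SD, n = 3 each). The CPSF3 hairpin arrays were below the control arrays without overlap, by -0.29 ± 0.14 (adjusted p = 0.188), and the RBFOX2 hairpin arrays overlapped with control (-0.05 ± 0.14). All 5 kept probe sets had a lower mean on CPSF3 hairpin arrays and on RBFOX2 hairpin arrays. The size depended on the summary and on the probe sets. With the mean over the 5 kept probe sets of IFITM1 the differences were -0.66 (adjusted p = 0.00347) and -0.39 (adjusted p = 0.155) by limma, and with the median over all 7 the differences were -0.83 (adjusted p = 0.00447) and -0.62 (adjusted p = 0.12) by limma. IFITM2 differed by 0.15 and 0.27 and passed no test. The IFITM genes are near-identical paralogs, so their probe sets may bind each other's transcripts and these values are uncertain.

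**Figure D3:**
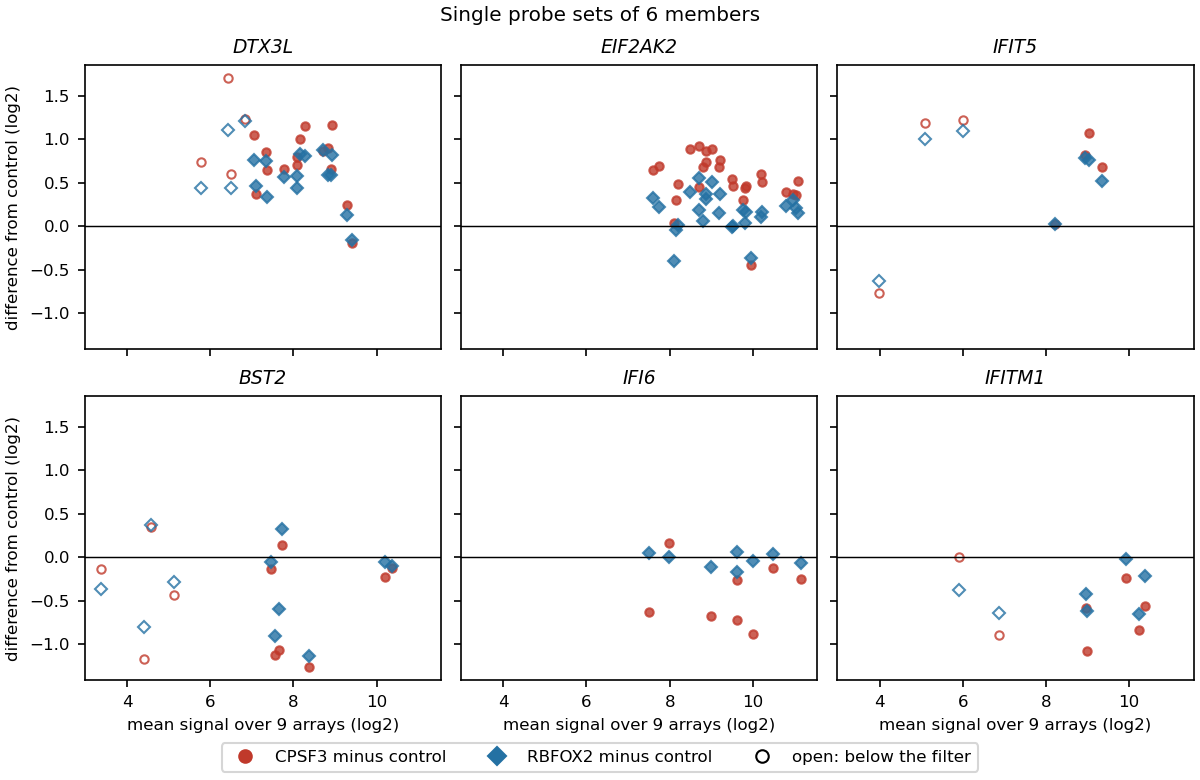
Difference from control (log2) of each probe set against its mean signal over 9 arrays (log2) for 6 interferon response genes, CPSF3 hairpin minus control as red circles and RBFOX2 hairpin minus control as blue diamonds; open symbols are probe sets below the filter. Most probe sets of DTX3L and EIF2AK2 lie above 0 for the CPSF3 hairpin, all 5 kept ones of IFITM1 lie below it for both hairpins, and BST2 has probe sets from -1.26 to 0.14 for the CPSF3 hairpin.

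The ISG15 system had 4 members, all measured, with 0 called in either comparison with control by limma and 0 with an unadjusted p under 0.05. ISG15, a ubiquitin-like tag, stood at 7.94, 8.14 and 7.98 on CPSF3 hairpin arrays and at 8.0, 8.18 and 7.96 on RBFOX2 hairpin arrays, against 7.97, 8.17 and 7.90 on control arrays. These values overlapped closely. The differences were 0.0037 ± 0.12 (95% interval -0.25 to 0.26) and 0.03 ± 0.12 (-0.23 to 0.28), so the intervals ended at 1.2-fold and 1.22-fold of control. USP18, which removes the tag, differed by -0.24 and -0.0048, and the ligases HERC5 and HERC6 by 0.11 and 0.19 on CPSF3 hairpin arrays and by -0.10 and 0.14 on RBFOX2 hairpin arrays. The first difference of USP18 passed the test with array weights (-0.33, limma adjusted p = 0.0179).

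The ubiquitin ligase DTX3L and its ADP-ribosyltransferase partner PARP9 are transcribed in opposite directions from the shared promoter shown above. DTX3L stood at 8.92, 8.42 and 8.47 on CPSF3 hairpin arrays and at 8.29, 8.12 and 8.52 on RBFOX2 hairpin arrays, against 7.60, 7.54 and 7.97 on control arrays. All arrays of both targeting hairpins lay above all control arrays. The rise was 0.90 ± 0.16 for the CPSF3 hairpin (1.86-fold, 95% interval 1.47 to 2.37; adjusted p = 0.00444) and the difference was 0.60 ± 0.16 for the RBFOX2 hairpin (adjusted p = 0.143; limma). Of 15 kept probe sets, 14 were higher on CPSF3 hairpin arrays, 11 of them with an unadjusted p under 0.05, and 14 were higher on RBFOX2 hairpin arrays. The call for the CPSF3 hairpin held in all 18 other settings that were tried, with differences from 0.72 to 1.03.

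PARP9 averaged 7.92 ± 0.24 on CPSF3 hairpin arrays and 7.82 ± 0.06 on RBFOX2 hairpin arrays, against 7.63 ± 0.02 on control arrays (SD, n = 3 each). All arrays of both targeting hairpins were above control, by 0.29 ± 0.13 and 0.19 ± 0.13, but neither difference passed the test (adjusted p = 0.143 and 0.552; limma). With the mean over kept probe sets the first difference of PARP9 passed it (0.32, limma adjusted p = 0.045). PARP14, a related enzyme, differed by 0.05 and 0.09. SP100, a component of nuclear bodies that silence incoming viral genomes, differed by 0.16 and 0.05 and was not called.

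Genes of the pathway outside the 40 members were taken from 6 lists. Of 10 measured ligands, receptors and kinases (18 listed), IFNAR1 alone was called on CPSF3 hairpin arrays. This subunit of the type I interferon receptor stood at 9.28, 9.13 and 9.29 on CPSF3 hairpin arrays and at 8.46, 8.94 and 9.16 on RBFOX2 hairpin arrays, against 7.92, 7.82 and 8.66 on control arrays. The CPSF3 hairpin arrays were all above control and the RBFOX2 hairpin arrays overlapped with control replicate 3. Without control replicate 3 the list had 2 called genes of 10. IFNAR1 rose by 1.1 ± 0.21 (adjusted p = 0.00528) on CPSF3 hairpin arrays and differed by 0.72 ± 0.21 (adjusted p = 0.159; limma) on RBFOX2 hairpin arrays. Among the ligands only IFNL1 was measured, and it was not called. Of 14 sensors and adaptors (17 listed), the adaptor MYD88 (0.62 ± 0.17, adjusted p = 0.0317) and the kinase TBK1 (0.48 ± 0.13, adjusted p = 0.023) rose on CPSF3 hairpin arrays. MYD88 stood at 9.20, 9.41 and 8.89 on CPSF3 hairpin arrays and at 9.23, 8.77 and 8.94 on RBFOX2 hairpin arrays, against 8.47, 8.30 and 8.88 on control arrays. TBK1 stood at 9.44, 9.31 and 9.14 on CPSF3 hairpin arrays and at 8.84, 8.76 and 9.12 on RBFOX2 hairpin arrays, against 8.89, 8.84 and 8.74 on control arrays. For both genes the CPSF3 hairpin arrays were above all control arrays, and the RBFOX2 hairpin arrays overlapped with control. Both calls were lost without CPSF3 replicate 1 or 2 or control replicate 1 or 2. MYD88 lost its call with all probe sets too (0.42, adjusted p = 0.17). Of the 14 differences in the list of sensors and adaptors 11 were above 0 and 3 below, with a median of 0.21. By limma, 8 of these genes (57.1%) had an unadjusted p under 0.05, against 28.2% of all genes. Without control replicate 3 this list had 4 called genes of 14. Beside the counts of both lists, 14.4% of all genes were called with all arrays. That share also rose without control replicate 3, as given with the members. Of 8 feedback inhibitors, SOCS1 and SOCS3 among them, 0 were called by limma, and 1 had an unadjusted p under 0.05.

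Of 28 measured genes that interferon also induces (32 listed), 6 (21.4%) rose on CPSF3 hairpin arrays and 0 fell, where 10% of all genes were called higher and 4.38% lower. Their median was 0.08. SAMD9, an antiviral factor, stood at 7.85, 7.59 and 7.54 on CPSF3 hairpin arrays and at 7.38, 6.95 and 7.40 on RBFOX2 hairpin arrays, against 6.41, 5.96 and 7.25 on control arrays (CPSF3 hairpin minus control 1.12 ± 0.24, adjusted p = 0.00954; limma). The control mean of 6.54 is under the filter value of 6.97, so SAMD9 was kept through the arrays where it was higher. SAMD9 is among the 6 genes counted, so that count depends in part on the filter. SAMHD1, a dNTP hydrolase, stood at 9.99, 9.48 and 9.60 on CPSF3 hairpin arrays and at 9.09, 8.99 and 9.31 on RBFOX2 hairpin arrays, against 8.65, 8.40 and 9.00 on control arrays (CPSF3 hairpin minus control 1.01 ± 0.17, adjusted p = 0.00311; limma). For both genes the CPSF3 hairpin arrays lay above all control arrays. The others were ZC3HAV1 (0.90), PNPT1 (0.66), TRIM14 (0.55) and LAP3 (0.53). The count was 2 without CPSF3 replicate 1, where SAMD9 lost its call (1.02, adjusted p = 0.052), and 3 without control replicate 2, where 5.76% and 7.19% of all genes were called. It was 9 without control replicate 3, where 20.5% were.

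Of 12 measured antigen presentation genes (14 listed), 4 fell on CPSF3 hairpin arrays and 0 rose, where 4.38% of all genes were called lower and 10% higher. Of the 12 differences 8 were below 0, and their median was -0.22. B2M, the light chain of class I molecules, stood at 8.47, 8.91 and 8.94 on CPSF3 hairpin arrays and at 8.60, 8.97 and 9.18 on RBFOX2 hairpin arrays, against 10.01, 9.77 and 9.01 on control arrays (CPSF3 hairpin minus control -0.82 ± 0.23, adjusted p = 0.0277). HLA-E stood at 9.16, 9.27 and 9.12 on CPSF3 hairpin arrays and at 9.48, 9.63 and 9.41 on RBFOX2 hairpin arrays, against 10.07, 9.93 and 9.58 on control arrays (CPSF3 hairpin minus control -0.68 ± 0.13, adjusted p = 0.00603; limma), with possible binding of transcripts of related HLA genes. PSMB9 and TAP1, the immunoproteasome subunit and the peptide transporter, fell by 0.66 and 0.43 on CPSF3 hairpin arrays, but with all probe sets PSMB9 differed by -0.21 (adjusted p = 0.341) and TAP1 by -0.45 (adjusted p = 0.0587; limma). The count of 4 was 1 without CPSF3 replicate 1 or control replicate 1 and 2 without control replicate 2, and B2M lost its call without CPSF3 replicate 2 too. Of 12 measured NF-kappaB targets and cytokines (15 listed), 3 fell and 0 rose, against the same shares of all genes. They were the chemokine CCL2 (-1.0 ± 0.18, adjusted p = 0.00411), TNF (-0.66 ± 0.16, adjusted p = 0.0177) and NFKB2 (-0.45 ± 0.12, adjusted p = 0.0215; limma). CCL2 stood at 7.32, 7.41 and 7.59 on CPSF3 hairpin arrays and at 7.32, 7.89 and 8.21 on RBFOX2 hairpin arrays, against 8.41, 8.40 and 8.51 on control arrays. TNF stood at 7.74, 7.56 and 7.79 on CPSF3 hairpin arrays and at 7.48, 7.94 and 7.31 on RBFOX2 hairpin arrays, against 8.52, 8.45 and 8.08 on control arrays. Every array of both targeting hairpins was below every control array for CCL2 and TNF. The count of 3 was 1 without CPSF3 replicate 2 or control replicate 1, and 2 without CPSF3 replicate 1 or control replicate 2; TNF lost its call in each of these settings.

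**Figure D4:**
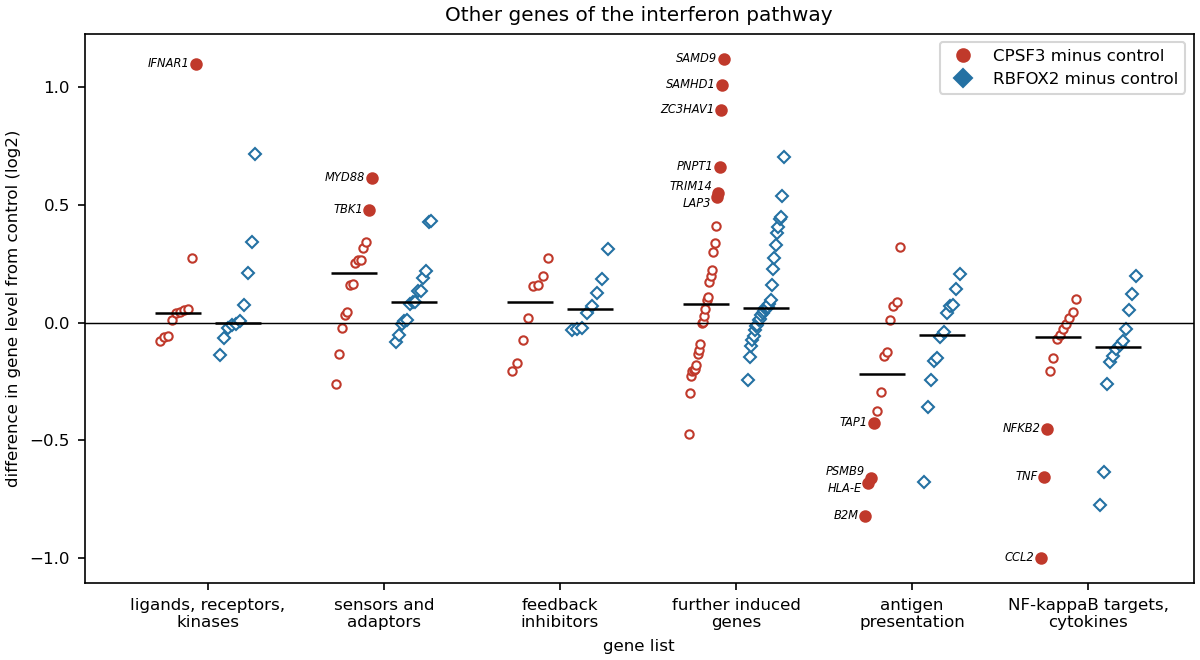
Difference in gene level from control (log2) for the measured genes of 6 lists outside the 40 members, CPSF3 hairpin as red circles and RBFOX2 hairpin as blue diamonds; each symbol is a gene, filled and named where the adjusted p is under 0.05, and black lines are list medians. Filled symbols lie above 0 among receptors, adaptors and further induced genes, below 0 in the lists of antigen presentation and NF-kappaB targets, and no blue symbol is filled.

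On RBFOX2 hairpin arrays 0 genes of the 6 lists were called by limma. In the order of the plot, 1 of 10, 2 of 14, 0 of 8, 7 of 28, 2 of 12 and 3 of 12 measured genes had an unadjusted p under 0.05. Of all genes, 13.6% did. Without control replicate 3, the lists of ligands to kinases, sensors, inhibitors and further induced genes had 2, 2, 1 and 6 genes called higher. Those of antigen presentation and NF-kappaB targets had 2 and 1 called lower. Leaving out this array also raised the share of all genes called, which is given with the members above. Between the CPSF3 and RBFOX2 hairpin arrays 0 genes of these lists were called, and 0, 1, 0, 2, 3 and 0 had an unadjusted p under 0.05. Of all genes, 0.4% were called there and 13.3% had an unadjusted p under 0.05. For CPSF3 hairpin against control, the counts with an unadjusted p under 0.05 by limma were, in the same order, 1 of 10, 8 of 14, 1 of 8, 11 of 28, 5 of 12 and 3 of 12. The share of all genes was 28.2%.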

How the data were processed

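All 9 samples were measured on the Human Exon 1.0 ST array of Affymetrix. The authors deposited log2 signals, 1 for each probe set on each array. Among the tools in the submitters' processing notes are Affymetrix Power Tools and RMA, with the build hg18; Exon Array Computational Tool appears in the design text. RMA brings the arrays to 1 distribution, so a shift shared by most transcripts cannot be seen; the number of arrays limits the precision.

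Of the gene symbols, 16426 were current in RefSeq (GRCh38.p14), 2950 were updated through a unique synonym and 121 were kept; only promoter windows carry coordinates of that build. Probe sets with several symbols were left out. Gene levels were fitted with limma 3.58.1 in R 4.3.3 (lmFit, eBayes, all 9 arrays, 3 groups, no block, two-sided); single probe sets likewise. For 3 arrays against 3, exact permutation reaches p = 0.1 at best. The fit was tested on simulated data. Errors of differences are SE.

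The members, the lists and the tests were chosen with earlier results of these data known. Array values are printed for called members, for the 3 smallest p of each comparison and for IFIT1, ISG15, MX1, OAS1, STAT2, DDX58 and IFIH1; of each other list, up to 2 highest and 2 lowest called genes. PARP9, RSAD2, IFITM1, ZC3HAV1, PNPT1, TRIM14, LAP3, PSMB9, TAP1 and NFKB2 were singled out after their values were seen. Other settings were the filter, normalisation, gene summary, variance model, array weights, compared groups alone, a replicate block and leaving out each array; for genes outside the members these were added after seeing the data.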

Additional observations from a re-analysis of the deposited data

Results flagged for a closer look

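VIM, the intermediate filament gene among the markers of the labelled cell type, differed between the targeting hairpins in the direct test. It stood at 10.31, 10.33 and 10.23 on CPSF3 hairpin arrays, against 10.96, 11.05 and 10.77 on RBFOX2 hairpin arrays, a difference of -0.635 (limma, adjusted p = 0.0384), with 3 of 3 arrays lower. The call was lost without any 1 of the CPSF3 replicates, without RBFOX2 replicate 1 or 2, and without control replicate 1. Of the 34 measured interferon response genes, 0 passed that test in limma, and 4 had an unadjusted p under 0.05.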

How the results depend on the processing

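Over 18 other settings, the members called for CPSF3 hairpin against control were 1 to 7 when single arrays were left out. They were 3 with the filter at the upper quartile (8.36), where fewer members were measured. They were 9 of 34 with the mean over probe sets and 10 of 34 with array weights. The counts over all genes there were 965 to 3429, and 4817 of 16748 with array weights. In the main fit 5 members and 2409 genes were called, so with array weights both counts rose. For RBFOX2 hairpin against control the members called were 0 to 3 with arrays left out and 4 with array weights. Over all genes these were 2 to 1546 with arrays left out, 7 without a filter, 44 with the mean, 1513 with array weights and 5 in the compared groups alone. For CPSF3 against RBFOX2 hairpin 1 member was called with the stricter filter and 1 with array weights, IFI6 in both. In the main fit of this comparison 0 members and 67 of 16748 genes were called. In other settings the genes called numbered 14 to 145 with arrays left out, 18 without a filter and 140 with the mean. They numbered 601 with array weights and 149 in the compared groups alone. With the replicate block, members called were 5, 0 and 0, and all genes called were 2564, 137 and 42 in the same order. Deviations of arrays with the same number correlated from -0.14 to 0.33 (median 0.039). Those of arrays with different numbers correlated from -0.45 to 0.35 (median -0.018). Of the 9 arrays, 1 correlated best with its own number in both other groups. So few correlations cannot settle whether the numbers pair the arrays. The median change of the members for CPSF3 hairpin against control was -0.047 to 0.0323 with arrays left out and 0.0315 with the stricter filter. For RBFOX2 hairpin against control it was 0.0115 to 0.0689 and 0.0117 with the mean, and for CPSF3 against RBFOX2 hairpin -0.0454 to -0.0254, and -0.000627 without a filter. None of the 5 members called for CPSF3 hairpin against control reversed its direction in these settings. The cause of these moves was not tested.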
